A study of Mus musculus with 8 samples.

Results

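The enzymes described here are 10 drug-metabolising genes of the mouse liver, chosen by symbol out of 41388 counted features: the cytochrome P450 genes Cyp2b9, Cyp2b10, Cyp2b13, Cyp3a11, Cyp3a13, Cyp3a16, Cyp3a25, Cyp3a44 and Cyp2a5, and Por, which encodes their electron donor. They were chosen with their AdNAMPT against AdGFP values known, so those values, with the intervals and threshold counts that the fit over all genes gives for them, are a description and no independent test. Liver RNA was sequenced from 8 db/db mice on the strain labelled C57B/6J, all without a working leptin receptor. The strain's db/db state stands in the sample titles, while the genotype label reads control. The mice, randomised when 5 weeks old, received a tail-vein adenovirus encoding GFP (AdGFP, 4 mice) or NAMPT (AdNAMPT, 4 mice), and are labelled as 10 weeks old, with overexpression given as 4 to 5 weeks in the series text. The study's methods and a legend for db/db fat give shorter times between virus delivery and assay, so the length of exposure in these livers is uncertain. Both groups therefore carried a virus, and no uninjected db/db mouse and no lean mouse was among these samples. The study's methods state that males were used. The promoter of the vector is not given in the sources used here.

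Cytochrome P450 enzymes are haem proteins of the endoplasmic reticulum that oxidise drugs, steroids, bile acids and other lipophilic compounds, and they draw electrons from NADPH through the reductase encoded by Por. In mouse liver, Cyp2b10 is the standard target of the nuclear receptor CAR (Nr1i3), and Cyp3a11 that of PXR (Nr1i2). Cyp2b9, Cyp2b13, Cyp3a16 and Cyp3a44 are known as female-predominant genes that the male pattern of growth hormone secretion keeps low.

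Libraries held 12006713 to 19879814 counts, and 3 counts, taken as the detection floor, corresponded to 0.151 to 0.250 CPM. Nampt itself was at 102 to 153 CPM in AdGFP and 120 to 178 CPM in AdNAMPT, with a log2 fold change of 0.08 (SE 0.15, limma adjusted p 0.915), so the transferred gene did not separate the groups and AdNAMPT below means the libraries labelled so. AdNAMPT replicate 1 stood apart. It had the lowest summed level of 17 female-biased genes outside the 10 enzymes, 151 CPM against 702 to 1122 CPM in the other 7 libraries, and the highest sum of 16 male-biased genes, 4539 CPM against 1158 to 1695 CPM. Enzyme values and list medians that it moved are therefore given with and without it. Its weight in the limma fit was 0.440, the smallest of the 8. Hepatocyte markers identified the tissue in every library: 7 of 7 matched genes were detected, with sums of 102754 to 126912 CPM in AdGFP and 101845 to 126806 CPM in AdNAMPT.

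The 9 P450 genes and Por lie at 4 loci of the GRCm38 assembly, all protein coding. Cyp2b10 (chr7:25897620-25926624), Cyp2b13 (chr7:26061495-26096196), Cyp2b9 (chr7:26173411-26210661) and Cyp2a5 (chr7:26835305-26843548) share 1 cluster on the plus strand of chromosome 7. Cyp3a16 (chr5:145436309-145469723), Cyp3a44 (chr5:145773983-145805874), Cyp3a11 (chr5:145854426-145879964) and Cyp3a25 (chr5:145977194-146009618) lie together on the minus strand of chromosome 5. Cyp3a13 (chr5:137892932-137921619, minus strand) and Por (chr5:135670033-135735326, plus strand) lie elsewhere on that chromosome. No exon of the 10 genes overlapped an exon of another feature.

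The sequences just upstream of the first annotated exon are shown for the Cyp2b genes because the close pair Cyp2b9 and Cyp2b13 differed in level between libraries while sharing almost all of this sequence. They are RefSeq sequences of GRCm38.p6, read 5′ to 3′ on the plus strand, from chr7:26061245-26061494 for Cyp2b13, chr7:26173159-26173408 for Cyp2b9 and chr7:25897408-25897619 for Cyp2b10. Capitals mark the 2 bases that differ between Cyp2b13 and Cyp2b9, and, in Cyp2b10, a match to TTGCNNAA, the letters of a C/EBP type site. Cyp2b13 and Cyp2b9 also hold a match to TTGCNNAA and one to AGGTCA, left in lower case so that their differing bases stand out.
Cyp2b13: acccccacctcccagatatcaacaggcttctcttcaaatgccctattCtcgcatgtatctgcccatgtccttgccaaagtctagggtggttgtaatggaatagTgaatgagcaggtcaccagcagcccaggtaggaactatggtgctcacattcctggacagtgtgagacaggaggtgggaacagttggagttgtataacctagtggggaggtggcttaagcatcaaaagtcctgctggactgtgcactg
Cyp2b9: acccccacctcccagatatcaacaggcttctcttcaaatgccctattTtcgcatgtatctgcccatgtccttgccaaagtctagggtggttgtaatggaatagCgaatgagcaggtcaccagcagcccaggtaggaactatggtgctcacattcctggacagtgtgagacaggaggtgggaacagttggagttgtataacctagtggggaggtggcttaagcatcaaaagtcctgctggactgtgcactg
Cyp2b10: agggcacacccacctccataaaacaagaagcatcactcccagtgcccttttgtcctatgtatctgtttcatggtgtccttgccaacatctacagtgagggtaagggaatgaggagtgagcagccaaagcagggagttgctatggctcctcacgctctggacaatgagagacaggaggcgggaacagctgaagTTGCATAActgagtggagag
Cyp2b13 and Cyp2b9 were identical at 248 of 250 bases (99.2%), more than over their transcripts (89.2%). Cyp2b10 was identical to Cyp2b9 at 156 of 216 aligned bases (72.2%) and at 86.1% of transcript bases.

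The upstream region is shown for 3 Cyp3a genes, Cyp3a11, the most abundant enzyme, and Cyp3a16 and Cyp3a44, the pair near the detection floor. They are transcribed from related sequences, but the printed stretches are not of the same length. These stretches are on the minus strand, from chr5:145879965-145880104 for Cyp3a11, chr5:145469724-145469973 for Cyp3a16 and chr5:145805875-145806124 for Cyp3a44. Cyp3a11 is printed over 140 bases, which end upstream of its RefSeq start, and Cyp3a16 and Cyp3a44 over 250 bases each. Capitals mark matches to AGGTCA or AGTTCA, hexamers that nuclear receptors bind, or to CAAAGTCCA, an HNF4 type element, on either strand. The CAAAGTCCA match of Cyp3a11, at -109 from the RefSeq start, lies outside its printed bases.
Cyp3a11: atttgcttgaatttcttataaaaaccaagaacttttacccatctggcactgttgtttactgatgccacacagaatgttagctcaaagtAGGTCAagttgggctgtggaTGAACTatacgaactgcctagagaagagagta
Cyp3a16: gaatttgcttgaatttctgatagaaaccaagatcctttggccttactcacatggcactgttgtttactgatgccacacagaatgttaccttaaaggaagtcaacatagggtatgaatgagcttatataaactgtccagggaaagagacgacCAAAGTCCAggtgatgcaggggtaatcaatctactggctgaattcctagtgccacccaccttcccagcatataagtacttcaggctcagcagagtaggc
Cyp3a44: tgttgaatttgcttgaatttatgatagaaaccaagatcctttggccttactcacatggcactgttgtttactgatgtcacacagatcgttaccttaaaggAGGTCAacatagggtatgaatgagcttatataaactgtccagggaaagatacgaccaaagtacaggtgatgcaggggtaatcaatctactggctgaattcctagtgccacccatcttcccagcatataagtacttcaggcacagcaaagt
Cyp3a16 and Cyp3a44 were identical at 236 of 246 aligned upstream bases (95.9%), and Cyp3a11 and Cyp3a16 at 115 of 148 (77.7%). The transcripts of Cyp3a11 were 91.3% identical to Cyp3a16 and 93.3% to Cyp3a44. In RefSeq windows of 300 bases around the start, all 10 genes had an entry. AGGTCA was found in 6 of the 10 and in 16.2% of 32544 windows of the same length, AGTTCA in 1 of 10 and 14% of windows, and CAAAGTCCA in 2 of 10, Cyp3a11 and Cyp3a16, and 0.479% of windows. TTGCNNAA was found in 5 of 10 and in 10.8% of windows, and TATAAA in 4 of 10 and 13.6%. Both strands were searched, the windows of a family are copies of one another and are not independent, and the motifs were chosen after the sequences had been read. A match is a description of letters and says nothing of binding in these livers. Sequence outside these windows was not searched, so a missing match says nothing of sites farther from the start.

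Likeness also bears on the counts, since only uniquely aligned reads were counted. Over windows of 50 bases, none of Por or Cyp3a13 was shared with another gene's annotated transcripts. The shared part was 6.73% for Cyp3a11, 8.70% for Cyp2b10, 10.7% for Cyp3a16, 11.2% for Cyp2b9, 26.5% for Cyp3a44, 26.8% for Cyp3a25, 27.3% for Cyp2b13 and 37.0% for Cyp2a5. The levels of the last 4 are the least certain. Most of the shared part of Cyp3a25 was shared with Cyp3a59 and most of that of Cyp2a5 with Cyp2a4, which was 98.2% identical to it.

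Levels of the 10 enzymes spanned more than 4 orders of magnitude on the RPKM scale, which divides reads by exon length and library size. Cyp3a11 was highest, at 4410 ± 1591 RPKM (SD, n = 8 libraries of both groups), followed by Cyp3a25 at 521 ± 68.7 RPKM, Cyp2a5 at 438 ± 142 RPKM and Cyp2b9 at 279.5 ± 83.5 RPKM. Por was at 118 ± 17.5 RPKM, Cyp2b13 at 141 ± 76.5 RPKM, Cyp3a13 at 91.0 ± 11.1 RPKM and Cyp2b10 at 30.6 ± 12.9 RPKM. Cyp3a44 and Cyp3a16 were at 0.440 ± 0.281 and 0.329 ± 0.218 RPKM. Cyp3a11 alone took 67.8% to 84.5% of the summed RPKM of the 9 P450 genes.

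**Figure D1:**
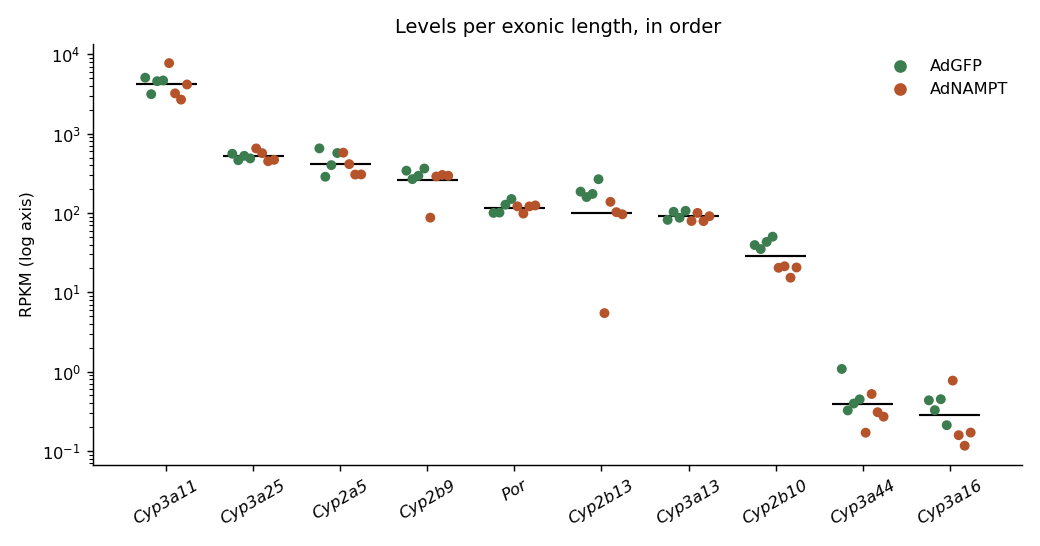
RPKM on a log axis of the 10 genes in the order of their mean log2 level, with 1 point per library coloured by group and a line at the mean of log2(RPKM + 0.1) over 8 libraries. Cyp3a11 lies between 2683 and 7742 RPKM, the middle 7 genes mostly between 15.3 and 652 RPKM, and Cyp3a44 and Cyp3a16 between 0.116 and 1.08 RPKM. The Cyp2b13 point far below its group is AdNAMPT replicate 1, at 5.46 RPKM.

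This order does not use the contrast between the groups. Neighbours in it were tested by an exact two-sided sign-flip permutation test of the difference within each library. The order and its pairs were taken from the same 8 libraries, so the tests are not independent of that choice. Of 9 neighbouring pairs, 5 differed at an adjusted p of at most 0.05. Cyp3a11 exceeded Cyp3a25 by 8.10-fold in 8 of 8 libraries, a mean log2 difference of 3.02 ± 0.37 (SD). Cyp2a5 exceeded Cyp2b9 in 8 of 8 libraries, with a mean log2 difference of 0.68 ± 0.88 that was 0.39 ± 0.35 without AdNAMPT replicate 1 (n = 7), and Cyp3a13 exceeded Cyp2b10 in 8 of 8, by 1.67 ± 0.57. Cyp2b10 exceeded Cyp3a44 in 8 of 8, by 5.85 ± 0.63, the widest step. For each of these 4 pairs the exact permutation p was 0.00781, the smallest that 8 libraries allow, and the adjusted p 0.0176. Cyp2b9 exceeded Por in 7 of 8 libraries, by 1.16 ± 0.69 (exact permutation p 0.0156, adjusted 0.0281), the exception being AdNAMPT replicate 1.

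The other 4 pairs did not differ at that threshold over all 8 libraries. They were Cyp3a25 and Cyp2a5 (exact permutation adjusted p 0.0938, Cyp3a25 higher in 6 of 8 libraries), Por and Cyp2b13 (0.961), Cyp2b13 and Cyp3a13 (0.961) and Cyp3a44 and Cyp3a16 (0.442). Cyp2b13 exceeded Cyp3a13 in 7 of 8 libraries, the exception being AdNAMPT replicate 1. Without that library the mean log2 difference was 0.72 ± 0.46 (SD, n = 7). The 2 genes were then no longer neighbours, so this difference was not tested. Por exceeded Cyp2b13 in 3 of 8 libraries only, but lay above it in the order because the mean on the log scale gave weight to the Cyp2b13 value of AdNAMPT replicate 1. Without that library Cyp2b13 came above Por, by a mean log2 difference of 0.39 ± 0.50 (exact permutation p 0.0938 over 7 libraries, the same after adjustment), and 5 pairs again passed. Without AdGFP replicate 4, 3 pairs passed in place of 5, with 0.0156 then the smallest exact permutation p that 7 libraries allow.

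Cyp2b10 had the clearest difference between the groups. It encodes the phenobarbital-inducible P450 of mouse liver. The level was 83.2, 74.0, 91.1 and 106 CPM across AdGFP and 43.0, 44.9, 32.2 and 43.4 CPM across AdNAMPT, in replicate order. Every AdNAMPT library lay below every AdGFP library, and AdNAMPT replicate 1, which stood apart for other genes, lay in the middle of its group. The limma log2 fold change was -1.24 (SE 0.13, 95% confidence interval -1.53 to -0.95), or 42.4% of the AdGFP level, and -1.28 (SE 0.14) without AdNAMPT replicate 1. Each library held 516 to 1525 reads of it. In bulk liver RNA, fewer cells of a type and less RNA per cell cannot be told apart.

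Cyp2b13, a P450 of female liver, had 348, 298, 326 and 499 CPM in the AdGFP libraries, in replicate order, and 10.2, 259, 192 and 180 CPM in those of AdNAMPT. The groups did not overlap, and AdNAMPT replicate 1 was lowest by far. The log2 fold change was -1.43 (SE 0.62, interval -2.80 to -0.06) with it and -0.94 (SE 0.17, interval -1.32 to -0.55) without it, or 37.2% and 52.2% of the AdGFP level. So 1 library set much of the size and most of the error of this value, while the other 3 AdNAMPT libraries also lay below all of AdGFP.

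Cyp2b9, its close relative, had 640, 500.4, 552 and 681 CPM across AdGFP and 164, 541, 565 and 553 CPM across AdNAMPT, in replicate order. Here 3 AdNAMPT libraries lay inside the AdGFP range and only replicate 1 lay below it. The log2 fold change was -0.44 (SE 0.26) with that library and -0.21 (SE 0.10) without it.

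Within each library, Cyp2b13 reads were 54.5%, 59.5%, 59.0% and 73.3% of Cyp2b9 reads across AdGFP and 6.26%, 47.9%, 34.0% and 32.6% across AdNAMPT, in replicate order. This ratio needs no scaling between libraries, and its groups did not overlap with or without AdNAMPT replicate 1. These genes were chosen with the contrast known, so that separation is a description and no independent test. How many other gene pairs separate in this way was not computed. Cyp2b10 reads were 13.0% to 16.5% of Cyp2b9 reads in AdGFP. In AdNAMPT they were 26.2% in replicate 1, where Cyp2b9 was low, and 5.71% to 8.31% in the other 3, so this ratio separated the groups only without replicate 1.

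**Figure D2:**
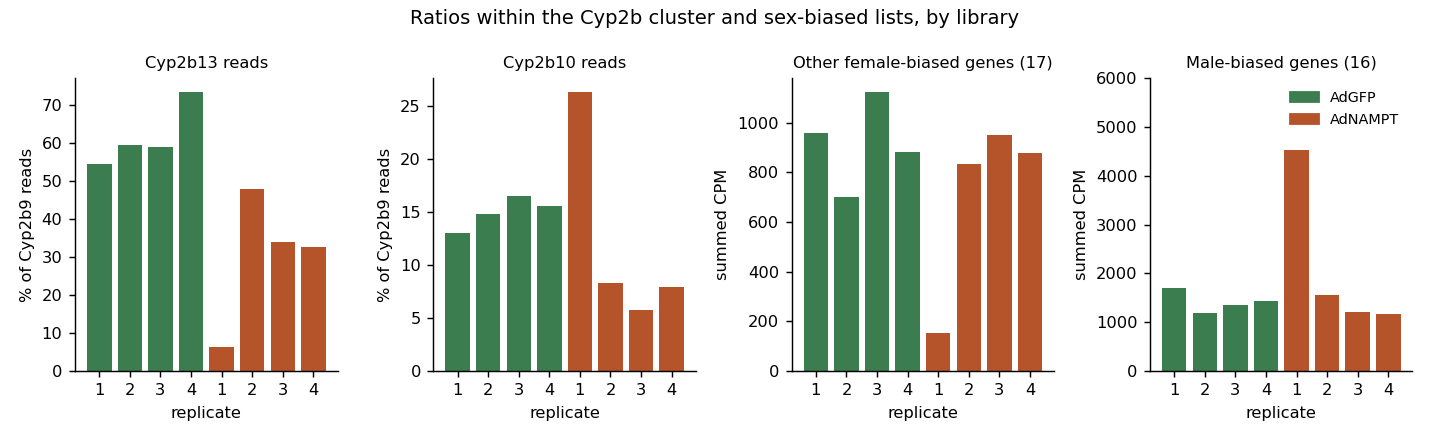
Bars give, for each library by replicate number, Cyp2b13 and Cyp2b10 reads as a percent of Cyp2b9 reads (left pair of panels) and the summed CPM of 17 female-biased genes outside the 10 enzymes and of 16 male-biased genes (right pair). AdNAMPT replicate 1 has a Cyp2b13 share of 6.26%, a Cyp2b10 share of 26.2%, the lowest female-biased sum (151 CPM) and the highest male-biased sum (4539 CPM).

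The sex-biased lists give the setting of these values. AdNAMPT replicate 1 was the lowest of the 8 libraries for 16 of the 17 other female-biased genes and the highest for 15 of 16 male-biased genes. Of the 4 female-biased enzymes described here it was lowest for Cyp2b9, Cyp2b13 and Cyp3a44 and highest for Cyp3a16. In the other 3 AdNAMPT libraries the sum of the 17 genes was 836 to 949 CPM, inside the AdGFP range of 702 to 1122 CPM, and the median log2 fold change of all 18 tested female-biased genes, Cyp2b9 and Cyp2b13 among them, moved from -0.43 to -0.07 when replicate 1 was left out. The median of the 13 tested male-biased genes moved from 0.14 to 0.01. Without replicate 1, 1 of these 13 passed the limma threshold, among 38 passing over all genes, and with all 8 libraries 0 did. The 16 male-biased genes summed to 1158 to 1552 CPM in the other 3 AdNAMPT libraries and 1191 to 1695 CPM in AdGFP. The part of the state of AdNAMPT replicate 1 in the Cyp2b values was not tested beyond the values given without that library.

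Cyp3a11, the main P450 for drugs and bile acids in mouse liver, had 11889, 7363, 10744 and 10966 CPM in the AdGFP libraries, in replicate order, and 18146, 7536, 6289 and 9761 CPM in those of AdNAMPT. AdNAMPT replicate 1 was the highest of all libraries and replicate 3 the lowest, so the groups overlapped from end to end. The mean was 10241 CPM for AdGFP against 10433 CPM for AdNAMPT, yet the weighted log2 fold change was -0.37 (SE 0.23, interval -0.87 to 0.12), with AdNAMPT replicate 1 given the smallest weight. It was -0.16 without sample weights, -0.08 by edgeR and -0.52 (SE 0.18, interval -0.91 to -0.13) without AdNAMPT replicate 1.

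Cyp3a25, an abundant Cyp3a enzyme with testosterone-hydroxylating activity, had a coefficient of variation of 8.27% in AdGFP, the lowest of the 10 genes there, and of 17.6% in AdNAMPT, where Por (10.4%), Cyp3a13 (11.8%) and Cyp2b10 (14.2%) varied less. It had 1161, 963, 1094 and 1014 CPM across AdGFP and 1355, 1182, 936 and 973 CPM across AdNAMPT, in replicate order. The groups overlapped, and the log2 fold change was -0.07 (SE 0.11), and -0.15 (SE 0.11) without AdNAMPT replicate 1. Its sign turned without AdNAMPT replicate 3 or 4 or with library size alone as scaling. As a percent of Cyp3a11 reads it ranged from 7.47% to 15.7%, with AdNAMPT holding both ends.

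Cyp3a13, the Cyp3a gene outside the cluster and also expressed in intestine, had 242, 306, 257 and 315 CPM in the AdGFP libraries, in replicate order, and 234, 296, 233 and 269 CPM in those of AdNAMPT. The groups overlapped, with a log2 fold change of -0.15 (SE 0.12) and an interval of -0.42 to 0.11.

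Cyp3a16 and Cyp3a44, known mainly from neonatal or female liver, were close to the floor and were too low for the fit's filter. Cyp3a44 had 31, 9, 13 and 12 reads across AdGFP and 4, 15, 12 and 9 reads across AdNAMPT, in replicate order. Cyp3a16 had 11, 8, 13 and 5 reads in the AdGFP libraries, in replicate order, and 16, 4, 4 and 5 reads in those of AdNAMPT. The highest Cyp3a16 value was in AdNAMPT replicate 1, which also had the highest Cyp3a11, and per 1000000 Cyp3a11 reads it held 73.4 Cyp3a16 reads, inside the AdGFP range of 33.3 to 76.7. In the other 3 AdNAMPT libraries that number was 30.2 to 36.2. Whether some of these few reads came from Cyp3a11 was not tested. Without the filter the limma log2 fold changes were -0.74 (SE 0.44, interval -1.68 to 0.21) for Cyp3a44 and -0.86 (SE 0.47, interval -1.88 to 0.17) for Cyp3a16. What size of difference could be detected with so few reads was not tested.

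Cyp2a5, the coumarin 7-hydroxylase that also oxidises nicotine, had 1351, 593, 831 and 1180 CPM across AdGFP and 1192, 855, 632 and 634 CPM across AdNAMPT, in replicate order. The groups overlapped, and its coefficient of variation was 34.5% in AdGFP and 31.9% in AdNAMPT. The log2 fold change was -0.46 (SE 0.24) and moved to -0.61 (SE 0.23) without AdNAMPT replicate 1 and to -0.30 without AdNAMPT replicate 3. It was -0.31 without either AdGFP replicate 1 or AdNAMPT replicate 4. Its near copy Cyp2a4, a female-biased steroid hydroxylase named here after its values were seen, was at 1.83 CPM in AdNAMPT replicate 1 and at 15.0 to 27.5 CPM in the other 7 libraries, so Cyp2a5 in that library did not follow it.

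Por, the reductase that serves every microsomal P450, had 403, 407, 511 and 603 CPM in the AdGFP libraries, in replicate order, and 487, 395, 486 and 500.2 CPM in those of AdNAMPT. The groups overlapped and AdNAMPT lay almost wholly inside the AdGFP range. The log2 fold change was -0.19 (SE 0.14, interval -0.49 to 0.11), and -0.16 (SE 0.15) without AdNAMPT replicate 1.

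**Figure D3:**
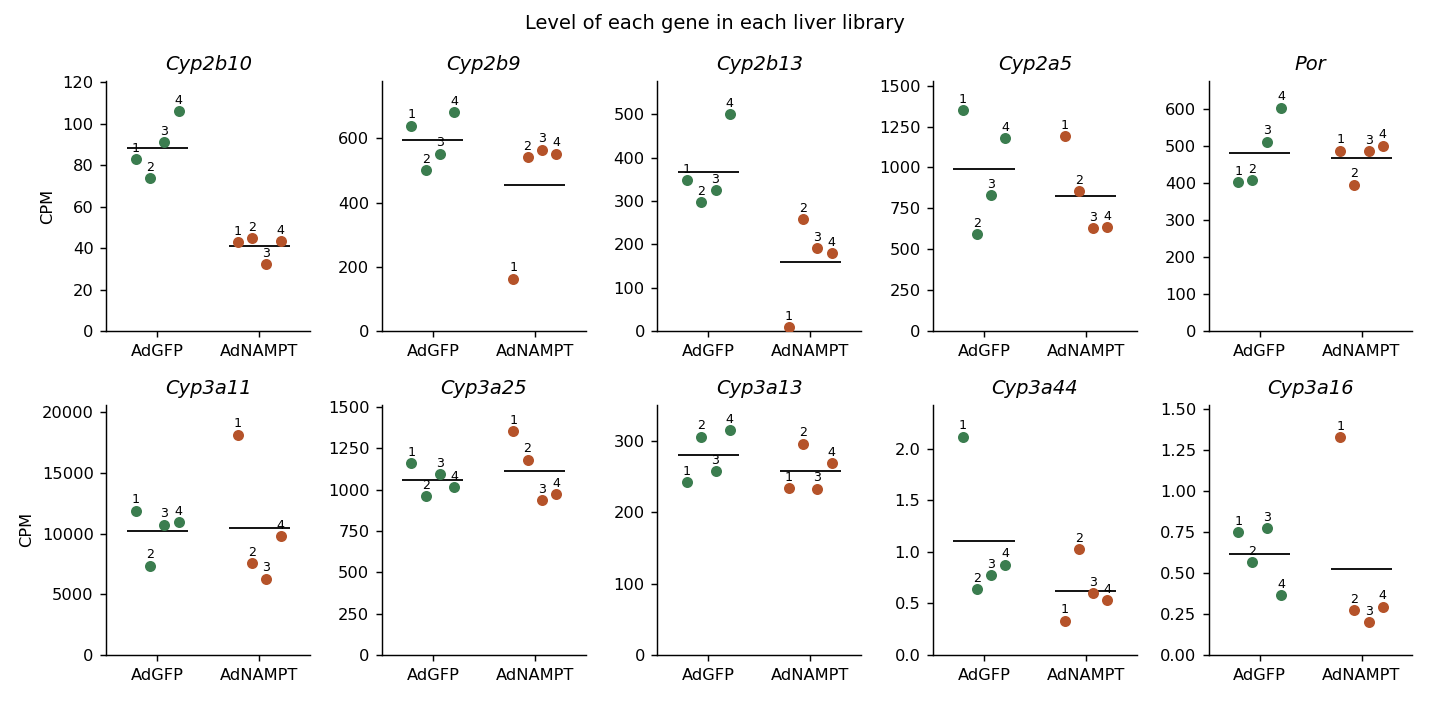
CPM of each gene (linear axis from 0) in the 4 AdGFP and 4 AdNAMPT libraries, with the replicate number above each point and a line at the group mean. The groups stand apart for Cyp2b10 (74.0 to 106 against 32.2 to 44.9 CPM) and Cyp2b13 (298 to 499 against 10.2 to 259 CPM) and overlap for the other 8 genes.

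Side by side, 8 of the 10 genes were tested and all 8 log2 fold changes were below 0, with a median of -0.41, against a median of 0.00 and 49.6% below 0 over 12270 tested genes. Without AdNAMPT replicate 1 the median was -0.37 and 8 of 8 remained below 0. Of the 8, 1 passed the limma threshold as lower, Cyp2b10, where 0.261% of all tested genes did, and 2 had groups that did not overlap on scaled CPM, Cyp2b10 and Cyp2b13, where 2.70% of all tested genes were lower without overlap. The genes were chosen with this contrast known, so nothing is read from these counts.

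**Figure D4:**
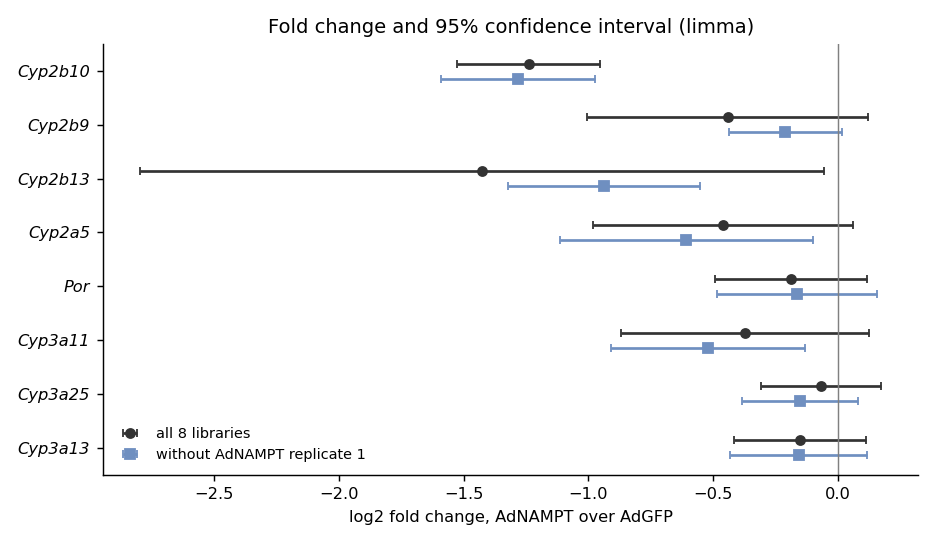
Log2 fold change of AdNAMPT over AdGFP with 95% confidence intervals from limma for the 8 tested genes, with all 8 libraries (circles) and without AdNAMPT replicate 1 (squares). Cyp2b10 lies at -1.24 and -1.28, Cyp2b13 at -1.43 and -0.94 with a much narrower interval in the second fit, and Cyp3a25 nearest to 0.

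Whether other genes of the same pathways differed between the groups was asked with 4 lists, each tested within the fit over all genes, in which 34 genes (0.277%) passed the adjusted threshold and 9.69% had an unadjusted p under 0.05. Other enzymes of the Cyp2a, Cyp2b and Cyp3a clusters came closest to the genes above in their median, -0.38 (-0.26 without AdNAMPT replicate 1) over 7 tested of 13, of which 6 were below 0 and 0 passed by limma, edgeR or DESeq2. By limma 3 had an unadjusted p under 0.05, all lower, and 1 each by edgeR and DESeq2. Cyp3a59, the near copy of Cyp3a25 (97.0% of aligned transcript bases), had a log2 fold change of -0.38 (SE 0.13, limma adjusted p 0.428). Cyp2f2, a periportal and airway P450, had -0.18 (SE 0.08), Cyp2a12, a steroid hydroxylase, -0.26 (SE 0.12), and Cyp2g1, best known from olfactory tissue, -0.92 (SE 0.43) at about 2 to 3 CPM, moving to -0.20 without AdNAMPT replicate 3.

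Of 35 CAR and PXR target genes, 32 were tested, 26 were below 0 and 0 passed by limma or edgeR, with a median of -0.17 (-0.20 without AdNAMPT replicate 1). By limma 7 had an unadjusted p under 0.05, all lower (5.04% of all tested genes were lower at that level), with 5 by edgeR and 7 by DESeq2, and 1 passed by DESeq2, where 0.612% of all genes did. That gene was Cyp2c54, an arachidonic acid epoxygenase of the Cyp2c cluster, with means ± SD of 660 ± 140 CPM (AdGFP, n = 4) and 447 ± 82.6 CPM (AdNAMPT, n = 4) and a log2 fold change of -0.69 (SE 0.17, limma adjusted p 0.225). Its adjusted p ranged from 0.0330 by DESeq2 to 0.514 over the alternatives. The related epoxygenases Cyp2c50 and Cyp2c37 had log2 fold changes of -0.52 (SE 0.15, limma adjusted p 0.331) and -0.63 (SE 0.18, limma adjusted p 0.357), and Sult1e1, the oestrogen sulfotransferase, -0.69 (SE 0.19, limma adjusted p 0.331).

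All 27 regulator genes were tested, 17 were below 0, and 0 passed by limma, edgeR or DESeq2, with a median of -0.03 (-0.07 without AdNAMPT replicate 1). By limma 4 had an unadjusted p under 0.05, 1 higher and 3 lower, with 2 by edgeR and 3 by DESeq2. Foxa2, a pioneer factor of hepatocyte genes, had means ± SD of 16.4 ± 1.52 CPM (AdGFP, n = 4) and 25.4 ± 4.95 CPM (AdNAMPT, n = 4) and a log2 fold change of 0.47 (SE 0.13, limma adjusted p 0.338). Nr0b2, the repressor SHP, had -0.33 (SE 0.11), Nr3c1, the glucocorticoid receptor, -0.15 (SE 0.07) and Hsp90ab1, a chaperone of the cytosolic CAR complex, -0.19 (SE 0.08). The receptors themselves, named here after their values were seen, overlapped between groups. Nr1i3 was at 100.3 to 162 CPM in AdGFP and 108 to 147 CPM in AdNAMPT, though an exon of it overlaps Tomm40l on the other strand, and Nr1i2 was at 83.0 to 120 CPM in AdGFP and 91.1 to 122 CPM in AdNAMPT. Their limma log2 fold changes on scaled counts were -0.26 for Nr1i3 and -0.02 for Nr1i2, neither past the threshold. Egfr, a receptor whose signalling restrains CAR, also named after its values were seen, was at 551 CPM in AdNAMPT replicate 1 and at 69.3 to 195 CPM in the other 7 libraries.

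All 17 genes of electron transfer and haem were tested, 11 were below 0, and 0 passed by limma, edgeR or DESeq2, with a median of -0.07. By limma 3 had an unadjusted p under 0.05, 1 higher and 2 lower, with 2 each by edgeR and DESeq2. Cyb5a, cytochrome b5 and a second electron donor of P450 enzymes, had means ± SD of 1680 ± 166 CPM (AdGFP, n = 4) and 1487 ± 36.5 CPM (AdNAMPT, n = 4) and a log2 fold change of -0.27 (SE 0.08, limma adjusted p 0.382). Blvra, a biliverdin reductase, had -0.32 (SE 0.10), Cyb5r3, the reductase of cytochrome b5, 0.32 (SE 0.14), and Cpox of haem synthesis -0.17 (SE 0.09).

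**Figure D5:**
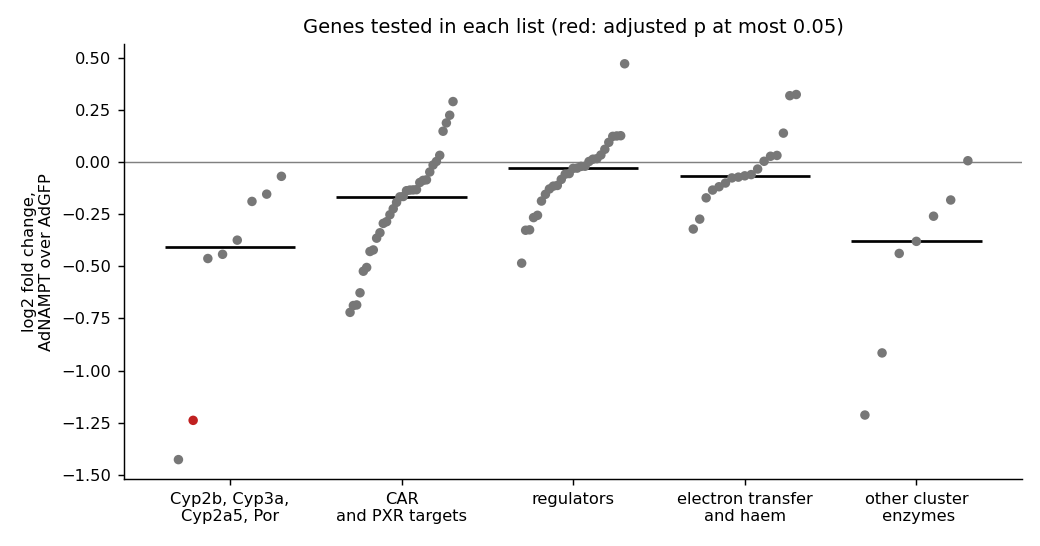
Limma log2 fold changes of AdNAMPT over AdGFP, 1 point per tested gene, for the 8 tested Cyp2b, Cyp3a, Cyp2a5 and Por genes and for the 4 lists, with a line at each median. Cyp2b10 is the only red point (adjusted p at most 0.05), and the medians run from -0.41 for the enzymes described here to -0.03 for the regulators.

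Other cell types and zones of the liver lobule were measured beside these values. All 7 Kupffer cell and macrophage markers were below 0, with a median log2 fold change of -0.44 (-0.31 without AdNAMPT replicate 1) and 0 passing by limma, and their sums were 215 to 269 CPM in AdGFP and 158 to 258 CPM in AdNAMPT. By limma 3 of these 7 had an unadjusted p under 0.05, all lower, against 5.04% of all tested genes lower at that level. By DESeq2 1 passed, against 0.612% of all genes, and by edgeR 0. Of 9 tested pericentral genes 7 were below 0 (median -0.22, and -0.34 without AdNAMPT replicate 1), and of 9 periportal genes 8 (median -0.27 and -0.30). By limma 2 pericentral genes had an unadjusted p under 0.05, all lower, and of the periportal genes 4 were lower and 1 higher at that level. No gene of these zone lists passed by limma or edgeR, and 1 periportal gene passed by DESeq2. Sinusoidal endothelial, stellate and cholangiocyte lists had medians of 0.08, 0.05 and 0.04, and of 0.09, 0.04 and -0.01 without AdNAMPT replicate 1. None of the 7 T, NK and B cell markers passed the filter. Their sums were 0.658 to 1.5 CPM in AdGFP, 1.33 CPM in AdNAMPT replicate 1 and 2.57 to 4.13 CPM in the other 3 AdNAMPT libraries, so they were higher in those 3. None of these lists had a marker at 0 in every library. The part of cell makeup or zone in the enzyme values was not tested.

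The genes whose levels moved most like an enzyme within groups were found by Pearson r of log2 scaled CPM, as deviations from the group means over 8 libraries. The points share library and depth, and the genes were picked as the highest among all tested genes, so r is a description. For Cyp2b9 they were Sult3a2 (r 0.99, Spearman rho 0.90), Sult2a5 (r 0.99, rho 0.90) and Cyp2a22 (r 0.99, rho 0.90), and r was 0.95, 0.92 and 0.94 over the 6 libraries left without the 2 farthest, 1 of them AdNAMPT replicate 1. For Cyp3a11 they were Nr2c2 (r 0.98, rho 0.98), Neu1 (r 0.98, rho 0.95) and Sh3d19 (r 0.98, rho 1), with 0.95, 0.93 and 0.92 without the 2 farthest. For Cyp2b10 they were 2810021J22Rik (r 0.99, rho 1), Flrt2 (r 0.98, rho 0.98) and Krr1 (r 0.97, rho 0.98), with 0.95, 0.97 and 0.94. Their mean levels were 2.46, 1.30 and 21.8 CPM, the first 2 close to the filter of 1 CPM. The values without the 2 farthest libraries come from genes already picked for a high r. None of the 10 enzymes was among these genes.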

How the data were processed

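RNA-seq of 8 db/db livers was analysed from the deposited counts, which are whole uniquely aligned reads per Ensembl gene made by the authors with STAR 2.4.0b on GRCm38 and featureCounts 1.4.5, per the submitters' processing notes. CPM and RPKM were used as given in the deposited files. CPM matched the value recomputed from the counts, while RPKM was not recomputed. Whether counting used strand is not given in the sources used here, and the library kit in the labels depletes ribosomal RNA whereas the methods describe poly-A selection. Symbols came from GENCODE M21 (40254 of 41388 features).

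Following the study's methods, 355 ribosomal RNA features and genes not above 1 CPM in at least 3 libraries were left out (12270 kept), and TMM-scaled counts were fitted with limma voomWithQualityWeights, group as the only term, with Benjamini-Hochberg adjustment and a threshold of 0.05. Neighbours in the order of levels were compared with an exact sign-flip test on log2(RPKM + 0.1), over 256 sign patterns. Similarity used log2 of scaled CPM plus 1. The enzymes, lists and tests were chosen with earlier results of these data known. Named list genes are those past the threshold, then up to 4 per list by smallest unadjusted p. Other genes are marked where named. Alternatives were edgeR's quasi-likelihood test, DESeq2, no sample weights, other scalings and filters, a replicate block and each library left out. On counts simulated for this comparison (12270 genes), limma called 197 of the 200 genes given a 3-fold change, and 6 others falsely. Smaller changes and a library that stands apart were not simulated, so recovery of smaller changes is not known. The detection floor covers counting error only, while the limma intervals rest on the spread between libraries. Replicates are separately numbered mice, and p-values set a difference against the spread between these samples. DESeq2 1.42.0, edgeR 4.0.16 and limma 3.58.1 were run in R 4.3.3, and the rest in Python 3.11.15 with scipy 1.17.1. Tf and Rhbg had no matching feature and were not analysed here.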

Additional observations from a re-analysis of the deposited data

Results flagged for a closer look

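Samples far from the rest of their group were sought among 30 quantities, the 10 enzymes, the named list genes, both read ratios and both sex-biased sums, in each group of 4 by Dixon's ratio at its 95% critical value. Of 60 groups examined 9 were marked, where chance marks about 1 in 20, or about 3.

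AdNAMPT replicate 1 accounted for 5 of the 9. Cyp2b9 was at 164 CPM there where the rest of the group had 541 to 565 CPM, and Cyp3a16 at 1.33 CPM against 0.201 to 0.295 CPM, which is 16 reads against 4 or 5. Cyp2b10 reads were 26.2% of Cyp2b9 reads against 5.71% to 8.31%. The other female-biased genes summed to 151 CPM against 836 to 949 CPM, and the male-biased genes to 4539 CPM against 1158 to 1552 CPM.

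The other 4 were single values in other libraries. Cyp2b10 was at 32.2 CPM in AdNAMPT replicate 3 against 43.0 to 44.9 CPM, Por at 395 CPM in AdNAMPT replicate 2 against 486 to 500.2 CPM, Cyp3a44 at 2.12 CPM in AdGFP replicate 1 against 0.635 to 0.877 CPM, and Cpox at 164 CPM in AdGFP replicate 4 against 133 to 135 CPM. Cyp2b13, at 10.2 CPM in AdNAMPT replicate 1 against 180 to 259 CPM, was not marked, because the other 3 were themselves spread.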

How the results depend on the processing

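DESeq2's Wald test called 75 genes in place of 34, and 1 CAR and PXR target (Cyp2c54) in place of 0. The other alternatives gave 28 to 41 called genes and 0 in each list, with 28 to 38 when single libraries were left out. With the replicate number as a block, 41 genes were called, the 4 lists again had 0, 8 of 8 enzymes were below 0, and Cyp2b10 had a log2 fold change of -1.28. The numbers were not treated as pairs, since deviations of same-numbered mice correlated at 0.24, -0.06, 0.22 and -0.01, and 2 of 4 mice correlated best with their own number. Under the block, as in each other alternative, Cyp2b10 was the 1 enzyme past the threshold, and the block changed no call on the named list genes. With single libraries left out, 3 to 5 neighbouring pairs in the order of levels passed (3 without AdGFP replicate 4), and 7 or 8 enzymes were below 0. Over all alternatives Cyp2b10 ranged from -1.39 to -1.10, Cyp2b13 from -2.0 (no sample weights) to -0.94, Cyp2b9 from -0.66 (no sample weights) to -0.21, and Cyp3a11 from -0.52 to -0.07. The causes were not tested. Library size alone as scaling moved the median of all genes by 0.08 and left 7 of 8 enzymes below 0, Cyp3a25 being at 0.02. Few reads limit what can be said of Cyp3a16 and Cyp3a44, with 4 to 31 reads per library.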
